A study of Mus musculus with 8 samples.

Results

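The nuclei described here passed a gate for striatal projection neurons with Drd1, the spiny neurons of the direct pathway, in single-nucleus RNA-seq of mouse brain hemispheres. They were chosen from the nuclei that the authors annotated as neurons by the counts of 6 genes. A nucleus needed at least 2 unique molecular identifiers (UMIs, each standing for 1 captured RNA molecule) of Gad1 and Gad2 together, at most 1 of Slc17a7, at least 2 of Rgs9, at least 2 of Drd1 and 0 of Drd2. This gate kept 170 of 61949 nuclei. The name is that of the gate, and part of these nuclei showed the identity weakly or not at all in some of the other markers, as given below. Of 45141 neurons, 10424 passed the Gad1, Gad2 and Slc17a7 steps, 2227 of these also passed the Rgs9 step, and the dopamine receptor counts left the 170. The same gate with Drd1 and Drd2 exchanged kept 352 nuclei, which serve as the closest comparison.

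Spiny projection neurons are the GABAergic output cells of the striatum and make up most of its neurons. Those of the direct pathway carry the D1 dopamine receptor, which couples through the olfactory-type G protein Gnal (Golf) to adenylyl cyclase 5 and raises cyclic AMP. They project to the substantia nigra pars reticulata and the internal pallidum and use substance P (from Tac1) and dynorphin (from Pdyn) as cotransmitters. Those of the indirect pathway carry the D2 receptor, which lowers cyclic AMP, together with the adenosine receptor Adora2a and enkephalin (Penk), and project to the external pallidum.

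The study sequenced nuclei from frozen hemispheres, with cerebellum and olfactory bulb removed, of C57BL6/J mice at 6 months of age. The 4 genotypes were WT, Cnp-/-, 5xFAD and Cnp-/- 5xFAD, with 2 libraries each, named here by genotype and replicate number (WT 1, WT 2 and so on). Cnp-/- mice lack the myelin enzyme CNP in all cells from conception, which gives a myelin defect. 5xFAD mice carry mutated human transgenes of familial Alzheimer's disease driven by the neuronal Thy1 promoter and form amyloid plaques. The genotypes serve to ask how a myelin defect, amyloid and both together change the brain's cells. The study describes pooling a pair of animals per replicate for single-cell work in general, which the labels do not state for these libraries. The p-values below measure the spread between these library profiles only. Where a library gave 1 or 3 Drd1 nuclei, that spread includes the spread between single nuclei.

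Library totals ran from 68905044 to 82399061 UMIs, and the median nucleus had 6811. The 170 Drd1 nuclei held 2350587 UMIs, with a median of 9886 and a range from 3073 to 68782 per nucleus. Between libraries, 454 cell barcodes were shared, and 3 Drd1 nuclei carried one of them. In the targeted gene, mature oligodendrocytes of both Cnp-/- libraries had a Cnp level of 23 CPM (UMIs of a gene scaled to the same total in each summed profile) and those of Cnp-/- 5xFAD 1 and 2 had 24 and 33, against 283 and 321 in WT and 219 and 265 in 5xFAD. In the Drd1 nuclei Cnp rested on 24 UMIs in all, so it could not be read there. The labels give no sex. The study's methods speak of both sexes in general, and its reporting summary describes the Cnp-/- crosses as female. In other inhibitory neurons the Y-linked gene Uty was at 144 to 185 CPM over the 8 libraries and Xist, the RNA of the inactive X chromosome, at 0 to 0.509 CPM, which goes against female animals in these libraries.

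The Drd1 nuclei were spread very unevenly over the libraries. WT 1 held 29 and WT 2 held 1, Cnp-/- 1 held 55 and Cnp-/- 2 held 3, 5xFAD 1 held 1 and 5xFAD 2 held 61, and Cnp-/- 5xFAD 1 held 19 and Cnp-/- 5xFAD 2 held 1. Thus 164 of the 170 (96.5%) came from 4 libraries, 1 of each genotype, and the other 4 libraries gave 6 nuclei. The Drd2 nuclei followed the same libraries, with 37, 112, 131 and 50 in those 4, 22 in Cnp-/- 2 and 0 in the other 3. Levels below are therefore given as mean ± SD over the 4 libraries with at least 10 Drd1 nuclei, in the order WT 1, Cnp-/- 1, 5xFAD 2 and Cnp-/- 5xFAD 1 where single values are listed, and the other 4 libraries are named where they enter a test.

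**Figure D1:**
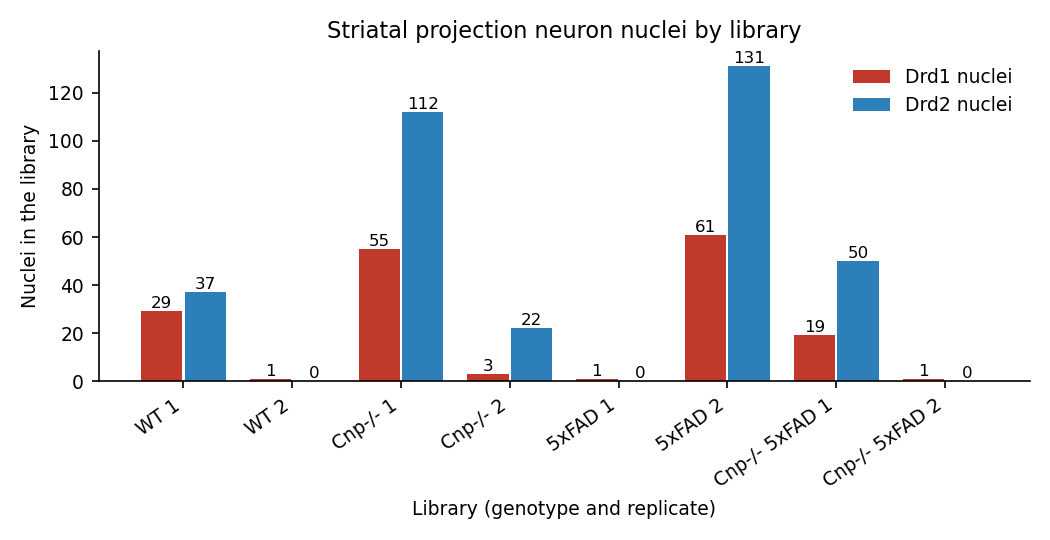
Number of nuclei that passed the Drd1 gate and the Drd2 gate (bars, vertical axis from 0) in each of the 8 libraries (horizontal axis, by genotype and replicate). Of the 170 Drd1 nuclei, 164 sit in WT 1, Cnp-/- 1, 5xFAD 2 and Cnp-/- 5xFAD 1, and each other library holds 1 or 3.

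Among neurons, Drd1 nuclei made up 0.474% in WT 1 and 0.018% in WT 2, 0.933% and 0.0439% in Cnp-/- 1 and 2, 0.0224% and 1.19% in 5xFAD 1 and 2, and 0.384% and 0.0162% in Cnp-/- 5xFAD 1 and 2. In every genotype 1 library had a far higher share than the other. The mean share was 0.344% with Cnp loss and 0.425% without it (difference -0.0811 percentage points, two-sided exact permutation test over 4 against 4 libraries, p = 0.771), and 0.402% with 5xFAD against 0.367% without (difference 0.0351, p = 0.971 in the same exact permutation test). As a share of Drd1 and Drd2 nuclei together, Drd1 nuclei were 43.9% in WT 1, 32.9% in Cnp-/- 1, 12% in Cnp-/- 2, 31.8% in 5xFAD 2 and 27.5% in Cnp-/- 5xFAD 1, and 100% in each of the 3 libraries where 1 nucleus passed. Its mean was 43.1% with Cnp loss against 68.9% without it (exact permutation p = 0.314) and 64.8% with 5xFAD against 47.2% without it (exact permutation p = 0.657). These means include the 100% of libraries with 1 nucleus. Over the 5 libraries with at least 10 nuclei of either gate, a setting added after the data were seen, they were 24.2% with Cnp loss against 37.9% without it (exact permutation p = 0.3) and 29.7% with 5xFAD against 29.6% without it (exact permutation p = 1.0), where the smallest p is 0.1. The adjusted p over the 4 exact permutation tests on 8 libraries was 0.971 for each, and the smallest p that design allows is 0.0286. The sources do not give how much striatum each library held, and its part in these shares was not tested.

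The counts that chose the nuclei are given as a description. Gad1 had a median of 2 UMIs per nucleus (range 0 to 27), Gad2 3 (0 to 21), Rgs9 7 (2 to 25) and Drd1 2 (2 to 6), and 119 of the 170 nuclei sat at the Drd1 threshold of 2. Rgs9, a regulator that shortens G protein signals behind dopamine receptors, was at 584 ± 103 CPM, and Drd1 (chr13:54051183-54055705 in GRCm38, minus strand) at 189.9 ± 44.0 CPM. The 404 nuclei just outside the gate, with 1 UMI of Drd1 and otherwise passing, were close to the 119 at the threshold. Pde10a was at 2040.2 CPM in the first and 2262 in the second, Rarb at 988 and 1172, Foxp2 at 918 and 946, and Tac1 at 80.0 and 79.6. At the Rgs9 threshold Rarb was at 906 CPM in the 16 nuclei with 2 UMIs of Rgs9, 561 in the 20 otherwise passing nuclei with 1 and 217 in the 23 with 0. In the same order Pde10a was at 1798, 1309.9 and 906 CPM, Foxp2 at 1426, 869.9 and 411, and Tac1 at 51.4, 80.9 and 7.62.

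Genes that mark spiny projection neurons of either pathway set the Drd1 nuclei apart from other inhibitory neurons, defined here as neurons that passed the Gad1, Gad2 and Slc17a7 steps with 0 UMIs of Rgs9, Drd1 and Drd2 (6514 nuclei, 8 libraries). Since the gate chose these nuclei, the identity is described with no test. Of the 20 genes listed as projection neuron identity genes, 19 had a mean of at least 10 CPM over the 2 sets of nuclei. A gene could reach that mean through the Drd1 nuclei alone, and the list was chosen with earlier results of these data known. Tallies of this list and of the cascade list below are therefore a description. All 19 were higher in the Drd1 nuclei and 11 of them (57.9%) by over 4-fold, where 39.2% of all 9699 genes at that level were higher and 1.08% by over 4-fold. Against excitatory neurons (16584 nuclei), 18 of 19 were higher and 9 by over 4-fold (54.4% and 2.22% of all 9415 genes), with Arpp21 the exception named here (1253 ± 156 CPM against 1838 in excitatory neurons).

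The transcription factors of the list came first. Rarb, the retinoic acid receptor beta, was at 933, 1335, 1060.3 and 1794 CPM in the 4 libraries (1280.3 ± 381), against 57.4 ± 23.2 in other inhibitory neurons and 32.3 in excitatory neurons. No library of the other inhibitory neurons passed 105 CPM. Foxp1, a forkhead factor of projection neurons, was at 1309 ± 149.8 CPM against 279 in other inhibitory neurons, and Bcl11b (Ctip2) at 282 ± 42.5 against 123. Meis2 was at 1187 ± 144 CPM, but other inhibitory neurons ranged from 93.8 to 2377 over libraries, so Meis2 did not separate the groups.

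The enzymes that read dopamine signals were high as well. Pde10a, the phosphodiesterase of spiny neurons that degrades cyclic AMP and cyclic GMP, was at 2191, 2577, 1971 and 3179 CPM (2479.6 ± 529), against 731 in other inhibitory neurons. Adcy5, the adenylyl cyclase behind the D1 receptor, was at 366, 445, 349 and 467 CPM (407 ± 58.2) against 51.7 ± 10.9, and Gng7, the gamma subunit that assembles with Golf, at 339.9 ± 86.5 against 44.0 ± 12.6. In each of these genes the lowest of the 4 libraries was above the highest library of other inhibitory neurons. Gnal was at 599 ± 103 CPM against 130.2. Ppp1r1b, which encodes DARPP-32, the phosphatase inhibitor that protein kinase A switches on, was at 39.7, 35.4, 37.6 and 37.6 CPM (37.6 ± 1.73) against 1.31 in other inhibitory neurons. Of the 37 genes listed for the dopamine and cAMP cascade, 33 were measured, 26 (78.8%) were higher than in other inhibitory neurons and 8 (24.2%) by over 4-fold, where 39.2% and 1.08% of all genes were. This list shares genes with the identity list, among them Pde10a, Adcy5, Gng7, Gnal and Ppp1r1b, so its tally is not a separate result. Among receptors, Oprk1 (the kappa opioid receptor) was at 31.1 ± 7.80 CPM against 2.74, and Gpr149, an orphan receptor, at 122 ± 60.5 against 11.9.

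Direct pathway genes were also present, within what 170 nuclei can show. Tac1 (chr6:7554879-7565834 in GRCm38, plus strand) was at 90.4, 77.6, 54.0 and 118 CPM (85.0 ± 26.7) and had a UMI in 52.9% of Drd1 nuclei. It was at 12.8 CPM in Drd2 nuclei and 10.2 in other inhibitory neurons, with a UMI in 10.8% and 5.36% of them. Isl1, a LIM homeodomain factor of direct pathway neurons, was at 39.7, 37.1, 33.7 and 10.7 CPM and had a UMI in 32.9% of Drd1 nuclei, against 3.12% of Drd2 nuclei. Pdyn was at 11, 10.1, 9.64 and 43.0 CPM, against 1.10 in Drd2 nuclei. The 43.0 CPM of Cnp-/- 5xFAD 1 stood apart from the other 3 libraries. Chrm4, the M4 muscarinic receptor, rested on 3 UMIs and could not be read at this depth. Of the other members of the direct pathway list, Ebf1 (32.9 ± 23.5 CPM) and Eya1 (25.5 ± 8.21) differed from other inhibitory neurons (28.7 ± 30.8 and 33.2 ± 10.8) by less than the spread over libraries. Ebf1 had a UMI in 17.1% of Drd1 nuclei against 6.79% of other inhibitory neurons, and in 11.8% against 6.71% with the nuclei thinned to 5584 UMIs each.

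Adora2a and Penk, the best known genes of the indirect pathway, were seen in few of the same nuclei. Adora2a (chr10:75316877-75334784 in GRCm38, plus strand) gave 11 UMIs over all Drd1 nuclei and was seen in 4.12% of them, against 72.2% of Drd2 nuclei and 0.48% of other inhibitory neurons. Penk gave 40 UMIs and was seen in 17.1% of Drd1 nuclei, against 57.1% of Drd2 nuclei and 5.66% of other inhibitory neurons. Other members of the indirect pathway list were more widespread. Adk was seen in 63.5% of Drd1 nuclei (90.1% of Drd2 nuclei and 62.6% of other inhibitory neurons), Ptprm in 47.6% (91.2% and 82.2%), Grik3 in 29.4% (88.4% and 47.3%) and Six3 in 17.6% (24.1% and 1.47%). The median depth was 9886 UMIs in Drd1 nuclei, 9000.5 in Drd2 nuclei and 6427 in other inhibitory neurons. With each nucleus thinned to 5584 UMIs, Foxp2 was seen in 90.2% of 153 Drd1 nuclei, 47.7% of 300 Drd2 nuclei and 14.5% of 3770 other inhibitory neurons. Drd3 was then seen in 34.6%, 17.0% and 1.46%. For Adora2a the thinned shares were 1.96%, 54.7% and 0.29%.

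**Figure D2:**
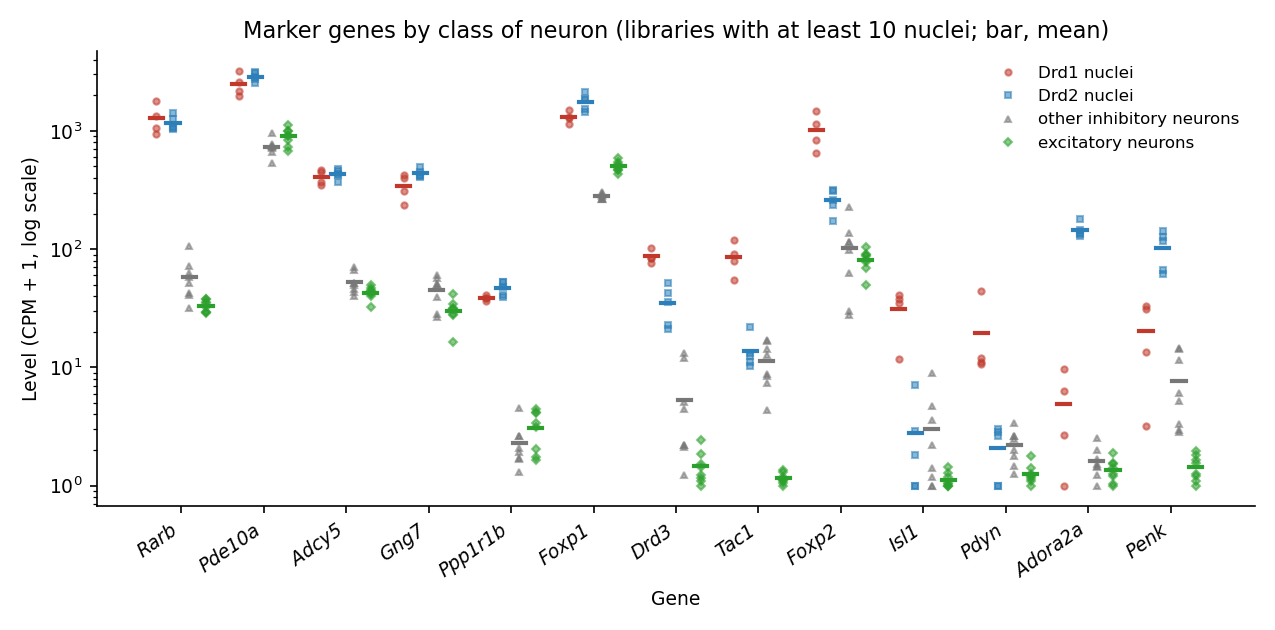
Levels in CPM, plotted as CPM + 1 on a log axis, of projection neuron, direct pathway and indirect pathway genes (horizontal axis) in Drd1 nuclei, Drd2 nuclei, other inhibitory neurons and excitatory neurons. Each point is a library with at least 10 nuclei of that group and each bar the mean. Rarb, Adcy5 and Gng7 of Drd1 and Drd2 nuclei lie above all libraries of both other groups, Tac1 and Isl1 separate Drd1 from Drd2 nuclei, and Adora2a lies near 0 in Drd1 nuclei.

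The 170 nuclei were not uniform. In the authors' clustering 111 of them (65.3%) fell in 1 cluster of 2015 nuclei, which also held 235 of the 352 Drd2 nuclei (66.8%) and is called the main cluster here. A second cluster, of 6859 nuclei, held 42 Drd1 nuclei, the next 12, and the remaining 5 lay in 2 others. Over all nuclei of a cluster, the identity list made up 1.41% of UMIs in the main cluster and 0.514% in the second. In the main cluster the identity list summed to 15059 CPM, Foxp2 was at 1388, Tac1 at 124 and Pdyn at 24.9, and the 12 oligodendrocyte markers summed to 40.5. In the 42 nuclei of the second cluster the identity list summed to 8227 CPM, Foxp2 was at 619, Tac1 at 28.5 and the oligodendrocyte markers at 570. The second cluster also had the deeper nuclei, with a median of 20526.5 UMIs against 8017. In the 12 nuclei of the next cluster astrocyte markers summed to 2301 CPM and oligodendrocyte markers to 930. A group of 3 nuclei had Drd3 at 624 CPM, from 9 UMIs, with 0 UMIs of Tac1 and Meis2. The identity list summed to 5618 CPM in these 3 and to 3534 in the last 2 nuclei. The clustering used these genes, so the differences are a description.

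Markers of other cell types also differed between libraries. In the Drd1 nuclei of the 4 libraries, the oligodendrocyte markers summed to 419, 467, 387 and 48.3 CPM, with none of the 12 at 0 over all nuclei, and in other inhibitory neurons they ranged from 314 to 728. Astrocyte markers summed to 1594, 854, 962 and 897 CPM, most of it 1 gene, Slc4a4, at 807, 688, 547 and 800. Slc1a2, another astrocyte marker, was at 423, 79.3, 220 and 48.3 CPM. Interneuron markers summed to 728, 1127, 1685 and 1160.0 CPM (2513 to 4719 in other inhibitory neurons). Most of the interneuron sum was 1 gene, the RNA editing factor Adarb2, at 683, 1080.0, 1577 and 1020.3 CPM. In the lone nuclei of WT 2 and Cnp-/- 5xFAD 2 Adarb2 alone made up the sum, at 4319 and 5697 CPM, so the sum does not describe interneuron markers as a class. The lone nucleus of 5xFAD 1 had Rarb, Foxp2, Tac1 and Meis2 at 0 and an identity sum of 3092 CPM, the lowest of the 8 libraries and within the range of other inhibitory neurons (2721 to 5312). Arpp21, Gng7 and Ryr3 of the identity list were at 0 too. By contrast, Bcl11b (286 CPM), Gnal (458) and Pde10a (1374) exceeded their means in other inhibitory neurons. The nucleus thus passed the gate with its other markers mixed, and it enters the genotype tests over the 8 libraries.

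Direct pathway transmitters did not divide the Drd1 nuclei into clean types at this depth. Of the 170, 15 had UMIs of both Tac1 and Pdyn, 75 of Tac1 only, 10 of Pdyn only and 70 of neither. Tac1 and Penk were seen together in 14 nuclei and Penk without Tac1 in 15. Tac1 and Drd3 were seen together in 47, Tac1 alone in 43 and Drd3 alone in 44. A missing UMI in a nucleus of this depth does not show that the gene was silent.

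The comparison of Drd1 with Drd2 nuclei asks what separates the direct from the indirect pathway beyond the receptors used to choose them. Tac1, Foxp2, Erbb4, Drd3 and Cntnap3 were among the genes higher in Drd1 nuclei, and Adora2a, Penk, Grik3, Adk and Htr2c among those lower. The 6 gate genes were left out of the counts of genes but not of the adjustment of p-values, and the profiles of the 2 groups were paired by library in the 5 libraries that held both (WT 1, Cnp-/- 1, Cnp-/- 2, 5xFAD 2 and Cnp-/- 5xFAD 1). Of 7403 genes tested with edgeR's quasi-likelihood test, 108 passed a Benjamini-Hochberg adjusted p of 0.05 (1.46%), 57 higher (0.77%) and 51 lower (0.689%) in Drd1 nuclei. Cnp-/- 2 entered with 3 Drd1 nuclei. Without 5xFAD 2, the library with most nuclei, 63 genes passed, 52 of them among the 108. In this comparison fewer RNA molecules per nucleus of a gene and fewer nuclei that express it cannot be told apart.

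Among the higher genes, the direct pathway list had 2 of its 5 tested members past the threshold, where 0.77% of all genes were higher, and all 5 positive, where 49.2% of all genes were (median log2 fold change 0.94, against -0.00 over all genes tested). The lists were chosen with earlier results of these data known, so this tally and those of the lists below are a description. Values follow the order WT 1, Cnp-/- 1, Cnp-/- 2, 5xFAD 2 and Cnp-/- 5xFAD 1. Tac1 was at 90.4, 77.6, 44.1, 54.0 and 118 CPM in Drd1 nuclei and 9.18, 12.1, 10.1, 21.0 and 11.4 in Drd2 nuclei (log2 fold change 2.35 ± 0.28 SE, edgeR adjusted p = 1.64e-05). Foxp2, a forkhead factor known for its role in vocal and motor learning, was at 644, 1139, 1322, 839 and 1482 CPM against 259, 233, 312, 317 and 173 (1.98 ± 0.19, edgeR adjusted p = 7.07e-07). In both genes every Drd1 profile lay above every Drd2 profile. Genes were named here for large changes in the same direction in every library, so lack of overlap follows in part from that choice. The share of all genes without overlap was not counted. Isl1, Pdyn and Ebf1 were too low to be tested.

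Further rises were in genes outside that list. Erbb4, the neuregulin receptor, was at 2216, 1831, 2182, 2069 and 1960.1 CPM in Drd1 nuclei and 839, 1050.1, 1585, 775 and 517 in Drd2 nuclei (1.20 ± 0.16, edgeR adjusted p = 7.37e-05). Drd3, a dopamine receptor of the D2 class, was at 75, 82.7, 110.2, 82.9 and 102 CPM against 34.9, 21.9, 20.1, 50.7 and 41.8 (1.22 ± 0.20, edgeR adjusted p = 0.0013). Neither gene overlapped between the groups, which again follows in part from how genes were chosen. Cntnap3, a contactin-associated protein of the neurexin family, rose by 1.90 ± 0.18, and Gfra1, a receptor for the trophic factor GDNF, by 1.86 ± 0.22 on the log2 scale (edgeR adjusted p = 1.04e-06 and 1.72e-05). The heparin-binding growth factor Mdk was at 24.3, 48.9, 22, 42.4 and 37.6 CPM in Drd1 nuclei against 5.51, 8.91, 10.1, 11.5 and 5.70 (2.14 ± 0.30, edgeR adjusted p = 0.000128). Arhgap29 (1.49), the xylose phosphatase Pxylp1 (1.43), the G protein beta subunit Gnb4 (1.34), the orphan receptor Gpr26 (1.32) and Ankfn1 (1.18) completed the 12 largest rises that went the same way in all 5 libraries, where 9.64% of genes tested did so.

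The indirect pathway list moved the other way, with 5 of its 6 tested members lower past the threshold, where 0.689% of all genes were, and a median of -1.79 against -0.00 over all genes. Adora2a was at 0, 1.69, 0, 8.68 and 5.37 CPM in Drd1 nuclei and 132, 129, 136, 143 and 179 in Drd2 nuclei (-4.85 ± 0.30, edgeR adjusted p = 4.52e-10). Penk was at 2.20, 30.4, 44.1, 12.5 and 32.2 CPM against 60.6, 140.1, 65.4, 116 and 125 (-2.63 ± 0.25, edgeR adjusted p = 7.07e-07). Grik3, a kainate receptor subunit, was at 46.3, 77.6, 154, 93.5 and 37.6 CPM against 321, 286, 267, 252 and 342 (-1.98 ± 0.20, edgeR adjusted p = 1.38e-06). In all 3 genes the groups did not overlap, which again follows in part from how genes were chosen. Ptprm, a receptor tyrosine phosphatase, was lower by a smaller margin (-0.63 ± 0.15, edgeR adjusted p = 0.0269) and was higher in Drd1 nuclei of Cnp-/- 2. Six3 (-0.83) did not pass. As this list too was chosen with earlier results known, its tally is no test of the pathway.

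Adk, another member of that list, is the kinase that clears adenosine by turning it into AMP. It was at 159, 99.6, 154, 121 and 75.2 CPM in Drd1 nuclei and 380.2, 336, 247, 385 and 349.9 in Drd2 nuclei (-1.61 ± 0.15, edgeR adjusted p = 6.73e-07). Nt5e, the ecto-enzyme that makes adenosine from AMP, was at 30.9, 15.2, 0, 25.1 and 43.0 CPM against 47.7, 48.6, 60.4, 52.8 and 79.9 (-1.12 ± 0.24, edgeR adjusted p = 0.0143). Nt5e was on no list and was picked after its value was seen, so these genes are no test of a pathway. Upb1, an enzyme of pyrimidine breakdown that begins 66331 bases downstream of Adora2a on the same strand, was at 0, 1.69, 0, 2.89 and 0 CPM against 36.7, 25.1, 30.2, 54.1 and 49.4 (-4.48 ± 0.45, edgeR adjusted p = 1.59e-06). Reads that run on from Adora2a into Upb1 cannot be told apart from Upb1 transcripts in these counts.

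Of the G-protein coupled receptors listed, 20 were tested, Drd3 was higher and 3 were lower in Drd1 nuclei, where 1.46% of all genes passed. Htr2c, the serotonin 2C receptor, was at 132, 160.3, 0, 195 and 156 CPM against 316, 402, 221, 446 and 369 (-1.31 ± 0.16, edgeR adjusted p = 1.72e-05). The delta opioid receptor Oprd1, which binds enkephalin, was at 52.9, 15.2, 0, 28.0 and 21.5 CPM against 99.2, 81.8, 70.4, 67.0 and 91.3 (-1.52 ± 0.22, edgeR adjusted p = 0.000292), and the corticotropin-releasing hormone receptor Crhr1 fell by 1.38 ± 0.31 on the log2 scale. The zeros came from the 3 nuclei of Cnp-/- 2. The other opioid receptors gave 0.04 ± 0.17 (Oprm1) and 0.17 (Oprk1) and did not pass. Fig4, a phosphoinositide phosphatase (-1.56), Dach1 (-1.32), the netrin receptor Unc5d (-1.26) and the guanine exchange factor Vav3 (-1.19) completed the 12 largest falls.

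**Figure D3:**
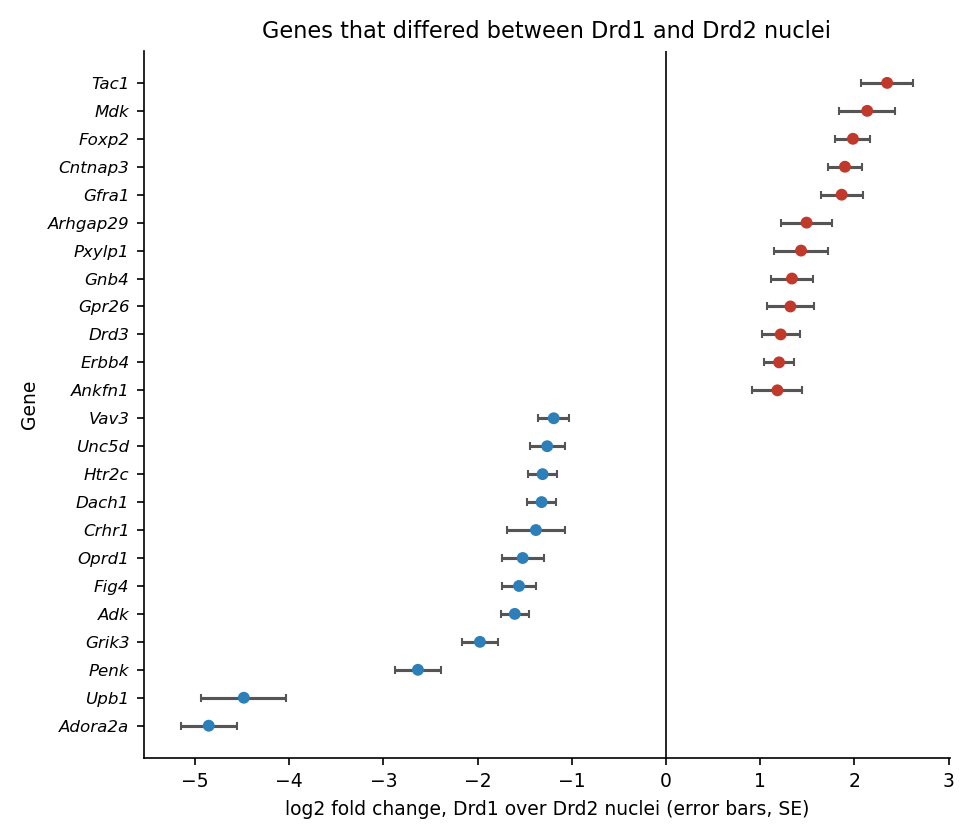
Log2 fold change of Drd1 over Drd2 nuclei (horizontal axis) for the 24 genes with the largest changes in each direction that passed the test and moved the same way in all 5 libraries. Points are edgeR estimates and bars 1 SE. Tac1 has the largest rise at 2.35 and Adora2a the largest fall at -4.85.

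**Figure D4:**
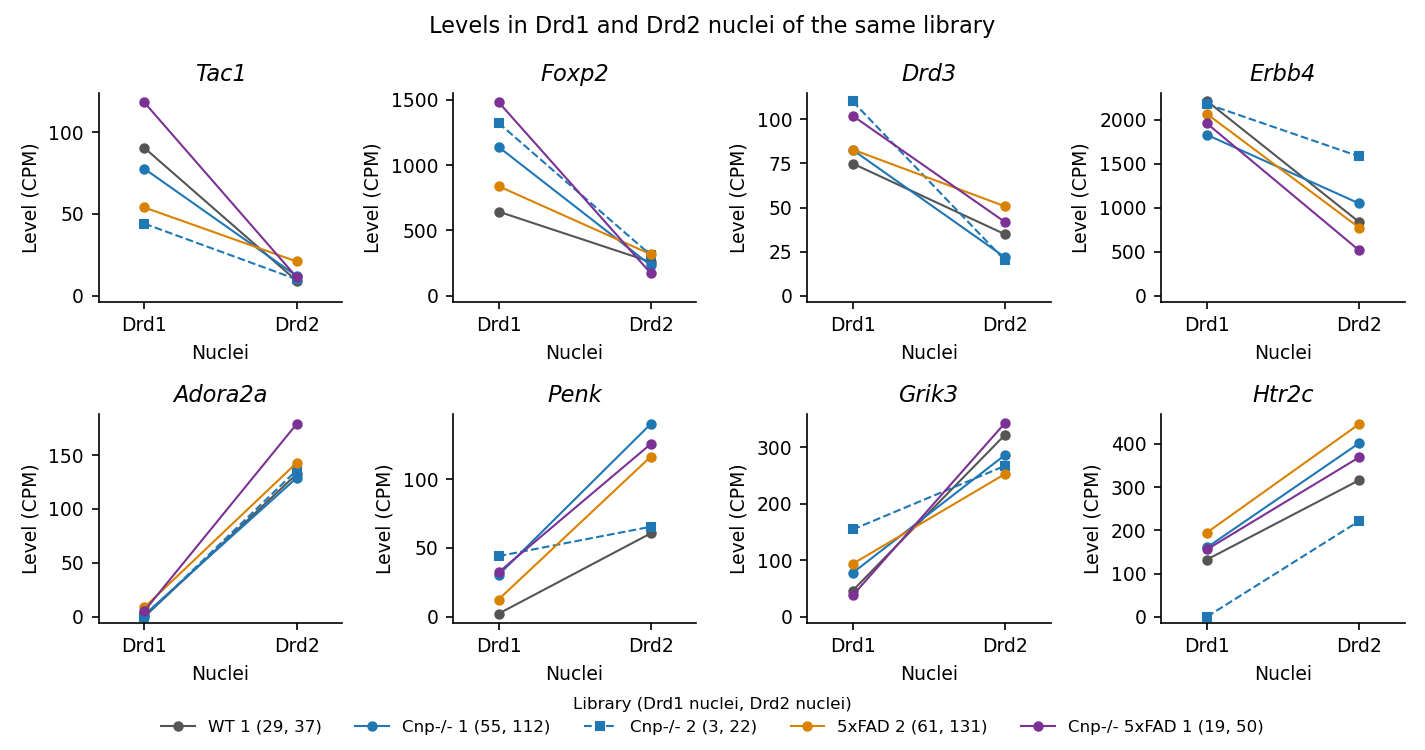
Levels in CPM (vertical axes) of 8 genes in the Drd1 and the Drd2 nuclei of the same library, joined by a line for each of 5 libraries, with dashed lines and squares for Cnp-/- 2, which has 3 Drd1 nuclei. All lines fall from Drd1 to Drd2 for Tac1, Foxp2, Drd3 and Erbb4 and rise for Adora2a, Penk, Grik3 and Htr2c.

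Genes shared by both kinds of projection neuron mostly had small negative values. Of the 20 identity genes 19 were tested, 2 were positive, where 49.2% of all genes tested were, and 1 passed, where 1.46% of all genes did. This was Foxp1, which was at 1296, 1298, 903, 1138 and 1504 CPM in Drd1 nuclei and 1535, 1872, 1444, 1821 and 2135 in Drd2 nuclei (-0.53 ± 0.11, edgeR adjusted p = 0.015). The identity list's median was -0.28. Rarb gave -0.03, Bcl11b 0.06, Adcy5 -0.19 and Gnal -0.19, and none of these passed. Of 33 cAMP cascade genes tested, only Pde4b, a cyclic AMP phosphodiesterase, passed, and it was lower (-0.82 ± 0.17, edgeR adjusted p = 0.00989). The cascade's median was -0.20, and 7 of its 33 members were positive. As the cascade list shares genes with the identity list, its tally is not separate from that list's. Of 37 channel genes only the calcium channel subunit Cacnb2 (-0.71) passed, and of 46 synapse genes only the GABA-A receptor subunit Gabra4 (-0.56), both lower.

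Other lists were short. Of 6 striosome genes tested 2 passed, both higher, where 1.46% of all genes passed. Sema5b, a semaphorin, was at 52.9, 199, 22, 116 and 166 CPM against 53.3, 53.4, 45.3, 54.1 and 66.5 (1.19 ± 0.21, edgeR adjusted p = 0.00262), higher in 3 of 5 libraries, and Tshz1 rose by 0.70. Among interneuron markers Adarb2 was higher (1.11 ± 0.15, edgeR adjusted p = 6.95e-05), 1 of 2 tested. None of the tested members passed in the matrix (3), regional (3), immediate early (4), stress response (4), amyloid processing (12), axon and node (16), oligodendrocyte (6), astrocyte (5), excitatory neuron (4) or microglia (1) lists. Drd3 is also 1 of the 4 tested genes of the list for eccentric neurons and islands of Calleja, whose median was 0.95, and the other 3 did not pass.

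The Drd1 and Drd2 nuclei of the main cluster were also compared alone. No Drd1 nucleus of Cnp-/- 2 lay in that cluster, so 4 libraries were paired, and without Cnp-/- 2 alone 98 genes passed. In the comparison within the cluster, added after the data were seen, 266 genes passed edgeR's test, 152 higher and 114 lower, and 91 of the 108 were among them. The log2 fold change of Grik3 was -4.10 in place of -1.98, that of Erbb4 2.36 in place of 1.20, that of Cntnap3 3.70 in place of 1.90 and that of Foxp2 2.57 in place of 1.98.

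The Drd1 nuclei were also divided among themselves by Oprm1, the mu opioid receptor, whose RNA marks striosomes, compartments of the striatum that differ from the surrounding matrix in their wiring. There were 37 nuclei with at least 2 UMIs of Oprm1 and 96 with 0, and 4 libraries held both kinds in number (9 and 18 in WT 1, 6 and 33 in Cnp-/- 1, 17 and 33 in 5xFAD 2, 4 and 11 in Cnp-/- 5xFAD 1). Oprm1 and the gate genes were left out of the counts of genes. In edgeR's paired quasi-likelihood test 22 of 4107 genes passed (0.536%), 21 higher (0.511%) and 1 lower (0.0243%) in Oprm1-rich nuclei. With Oprm1 and the gate genes also left out of the adjustment, a setting added after the data were seen, 18 passed, and Mcc and Ptprm were no longer among them. Among the lists, the indirect pathway had 2 of its 3 tested members higher, Grik3 and Ptprm (1.19), and none of 16 identity genes passed (median -0.48).

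Zfpm2, a cofactor of GATA factors, was at 198, 386, 318 and 512 CPM in Oprm1-rich nuclei of WT 1, Cnp-/- 1, 5xFAD 2 and Cnp-/- 5xFAD 1 and at 73.3, 24.4, 65.5 and 0 in Oprm1-free nuclei (2.82 ± 0.43, edgeR adjusted p = 0.00908). The zinc finger factor Tshz3 was at 87.3, 187, 99.1 and 124 CPM against 19.5, 34.8, 32.8 and 28.7 (2.03 ± 0.31, edgeR adjusted p = 0.00908), and Chrm3, the M3 muscarinic receptor, at 225, 269, 427 and 353 against 122, 52.2, 71.0 and 124 (1.90 ± 0.29, edgeR adjusted p = 0.00908). These 3 genes did not overlap between the groups, which follows in part from how genes were chosen. Of all genes tested, 17.5% moved the same way in every library, and the share without overlap was not counted. Of the 370 UMIs of Zfpm2 over all Drd1 nuclei, 301 lay in the 42 nuclei of the second cluster (277 CPM) and 4 in the main cluster (4.15 CPM), and the 512 CPM of Cnp-/- 5xFAD 1 were 29 UMIs of 1 nucleus. Grik3 rose by 2.28 ± 0.38, Nfib by 2.07, Vwc2l by 2.04, Unc5d by 1.92, Mcc by 1.90, Zmat4 and Galnt14 by 1.85 each, the glutamate receptor Grm8 by 1.73 and Hs3st4 by 1.69. Slit2, an axon guidance ligand, fell by 1.28 ± 0.23 on the log2 scale (106, 58.5, 139 and 88.3 CPM against 293, 157, 287 and 296, edgeR adjusted p = 0.0323).

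Of the 7 striosome genes other than Oprm1, 3 were tested and none passed, where 0.536% of all genes did (median 0.06). Bach2 gave 0.93 ± 0.28 (edgeR adjusted p = 0.22) and Tshz1 0.06 ± 0.24 (edgeR adjusted p = 0.979). Sema5b was at 13.8, 175, 92.0 and 124 CPM in Oprm1-rich nuclei and 103, 275, 145 and 229 in Oprm1-free nuclei (-0.96 ± 0.30, edgeR adjusted p = 0.232), lower in all 4 libraries, where 17.5% of all genes tested moved the same way in each. Oprm1-rich nuclei were deeper (median 15686 UMIs against 8817), and 45.9% of them against 81.3% of Oprm1-free nuclei lay in the main cluster. Their identity list summed to 9486 CPM against 12954 and their oligodendrocyte markers to 350 against 309. Of the 3 astrocyte markers tested, 2 were positive and none passed. Astrocyte markers summed to 1046.9 CPM against 1046.5, microglia markers to 190 against 86.8 and interneuron markers to 1721 against 899.8. Adarb2, the main part of that last sum, was at 813, 994, 1979 and 1996 CPM against 596, 1319, 581 and 717 (0.86 ± 0.29, edgeR adjusted p = 0.272). Within the main cluster no gene passed edgeR's test, and without 5xFAD 2 none did either. The count was 9 without WT 1 and 34 without Cnp-/- 1. With each nucleus thinned to the same depth 6 genes passed, and without the deepest nuclei 3.

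Genotype effects within the Drd1 nuclei were tested over the 8 libraries, each as 1 summed profile, of which 4 held 1 or 3 nuclei. In each genotype 1 profile summed 19 to 61 nuclei and the other held 1 or 3. The spread within a genotype therefore includes that between single nuclei, and the p-values cannot tell these apart. Of 3281 genes tested with edgeR's quasi-likelihood test, 1 passed for Cnp loss (0.0305%), 1 for 5xFAD (0.0305%), 0 for the interaction of the pair and 5 for Cnp loss on the 5xFAD background (0.152%). At an unadjusted p under 0.05 the counts were 42, 33, 41 and 56. DESeq2 called 0 in each. All 7 calls were of lower levels. The counts hung on single libraries. For Cnp loss it was 0 without WT 1 or Cnp-/- 5xFAD 1, 14 without 5xFAD 2, 10 without Cnp-/- 2, 4 without WT 2 or 5xFAD 1 and 2 without Cnp-/- 5xFAD 2. For 5xFAD it was 0 without WT 1 or Cnp-/- 5xFAD 1, 10 without 5xFAD 2, 6 without Cnp-/- 2, 3 without Cnp-/- 5xFAD 2 and 2 without WT 2 or 5xFAD 1.

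The gene for Cnp loss was Sox6, a transcription factor of interneurons from the medial ganglionic eminence. Its level was 187 and 0 CPM in WT 1 and 2, 55.7 and 198 in Cnp-/-, 916 and 217 in 5xFAD and 5.37 and 0 in Cnp-/- 5xFAD (-3.44 ± 0.72, edgeR adjusted p = 0.0136). The groups overlapped, and the 916 CPM were 16 UMIs of the lone 5xFAD 1 nucleus. Over all Drd1 nuclei Sox6 had 369 UMIs in 33 nuclei, 160 of them in 5 nuclei. It passed in 4 of 18 alternative settings, and without WT 1 its log2 fold change turned to 0.78. The next genes by p were Slc1a2, the glial glutamate transporter (-2), Trhde (-2.69), Kcnmb2 (-2.26) and Btbd11 (-2.02), each with an edgeR adjusted p of 0.326. In 56 genes (1.71%) the libraries with and without Cnp loss did not overlap.

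The gene for 5xFAD was Cpa6, a secreted carboxypeptidase. It was at 212 and 0 CPM in WT 1 and 2, 25.3 and 331 in Cnp-/- 1 and 2 and 0 in all 4 libraries with 5xFAD (edgeR adjusted p = 4.27e-08). Its 126 UMIs came from 12 nuclei and 96 of them from 5 nuclei. The 331 CPM of Cnp-/- 2 were 15 UMIs of 1 nucleus. WT 2 was also at 0, so the libraries with and without 5xFAD overlapped. Pooled, 114 CPM without 5xFAD stood against a floor of 2.41 CPM (3 counts over the 5xFAD group), which made the pooled level at least 47.4-fold lower. WT 1 gave 96 of the 126 UMIs, and without it 46.1 CPM stood against the same floor, at least 19.1-fold. Without Cnp-/- 1 it was at least 90.1-fold. These bounds cover counting error of the pooled UMIs only, not the spread between nuclei or libraries. With WT 2 at 0, no such bound holds from library to library. Cpa6 passed in 13 of 18 alternative settings. Within the main cluster, which held no Drd1 nucleus of Cnp-/- 2 or 5xFAD 1, no gene passed. The next genes were Zeb2 (-1.92), Luzp2 (-2.06), Zfp804b (-2.14) and Eif2s3y (-1.99), with an edgeR adjusted p of 1. In 59 genes (1.80%) the libraries did not overlap.

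Cnp-/- 5xFAD against 5xFAD gave lower Sox6 (-6.17 ± 1.22, edgeR adjusted p = 0.00333), Trhde, a peptidase that inactivates thyrotropin-releasing hormone (-5.28), the Y-linked translation factor gene Eif2s3y (-4.93), the potassium channel Kcnc2 (-4.48) and the potassium channel subunit Kcnmb2 (-4.41). Trhde was at 4065 and 104 CPM in 5xFAD 1 and 2 and 48.3 and 0 in Cnp-/- 5xFAD 1 and 2, and Kcnc2 at 3435 and 415 against 85.9 and 0. In both, the high value was the single nucleus of 5xFAD 1, and without that library no gene passed. The count was also 0 without WT 2, Cnp-/- 2 or either Cnp-/- 5xFAD library, 1 without WT 1 or Cnp-/- 1, and 38 without 5xFAD 2. With the groups of 2 libraries, 996 of 3281 genes (30.4%) did not overlap. For the interaction, the genes with the smallest p were Cadps2 (-9.02), Eif2s3y (-5.15), Grik1 (-5.47), Sox6 (-5.45) and Trhde (-5.17), with edgeR adjusted p from 0.205 to 0.317. The interaction count was 14 without 5xFAD 2, 2 without Cnp-/- 2 and 1 without WT 2.

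**Figure D5:**
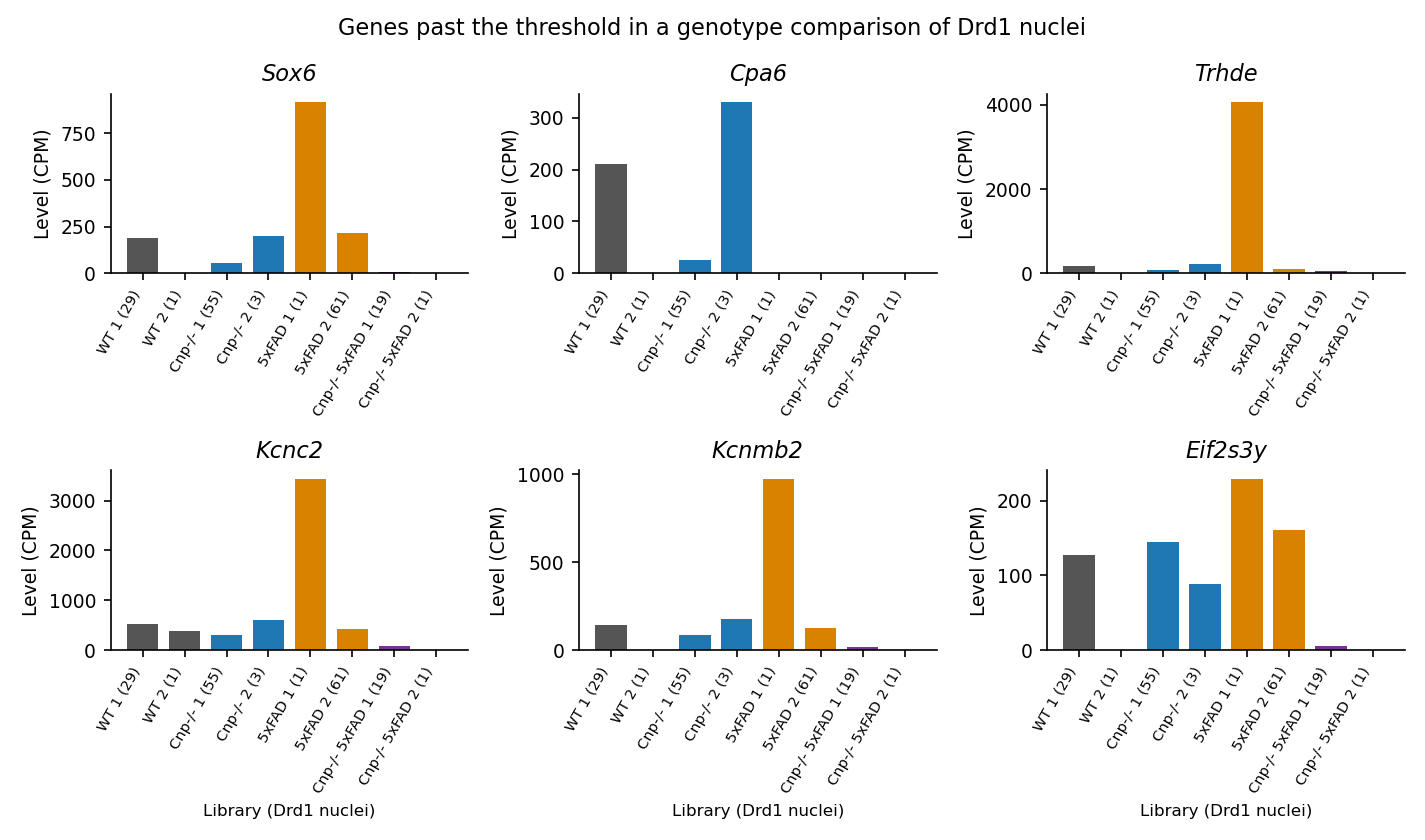
CPM (bars, vertical axes from 0) of Sox6, Cpa6, Trhde, Kcnc2, Kcnmb2 and Eif2s3y in the Drd1 nuclei of each of the 8 libraries, with the number of nuclei in each label. The highest bars of Sox6, Trhde, Kcnc2, Kcnmb2 and Eif2s3y belong to the 1 nucleus of 5xFAD 1, and Cpa6 is at 0 in all 4 libraries with 5xFAD.

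Pathway lists showed no member past the threshold for Cnp loss, 5xFAD or their interaction. Several lists had few or no members that could be tested. These were stress response (0 of 20), microglia (0 of 9), regional (0 of 6), immediate early (1 of 24), neuropeptide (2 of 12) and direct pathway genes (3 of 10). Of 15 identity genes tested, 13 were positive for Cnp loss (median 0.25, against -0.04 over all genes, of which 45.6% were positive) and 2 for 5xFAD (median -0.29, against -0.06 and 41.9%). Of 25 cAMP cascade genes, some of them shared with the identity list, 15 were positive for Cnp loss (median 0.11) and 5 for 5xFAD (median -0.16). These tallies hung on the lone nucleus of 5xFAD 1, in which Rarb, Meis2, Arpp21, Gng7 and Ryr3 were at 0 and which counts among the libraries without Cnp loss and those with 5xFAD. Without it 10 of 16 identity genes were positive for Cnp loss (median 0.08, against -0.06 over all genes) and 8 for 5xFAD (median -0.01, against -0.03), and of 31 cascade genes 17 and 16. Rarb gave 0.71 ± 0.63 for Cnp loss and -0.06 ± 0.63 for 5xFAD, Pde10a 0.37 ± 0.58 and -0.05 ± 0.58, and Tac1 0.45 ± 0.48 and -0.04 ± 0.48. Amyloid processing genes (7 tested) had medians of -0.20 and -0.13 and synapse genes (39 tested) of 0.06 and -0.17. Beside them, the 3 astrocyte markers tested had a median of -2 for Cnp loss and the 1 oligodendrocyte marker gave -1.07. For 5xFAD they gave -0.76 and -1.38.

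When only the 4 libraries with at least 10 Drd1 nuclei were kept, in an additive model chosen after the data were seen, 83 genes passed for Cnp loss, 16 higher and 67 lower, and 19 for 5xFAD, 10 higher and 9 lower. This leaves 1 library per genotype and 1 residual degree of freedom, so that a genotype and its library cannot be told apart.

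Responses that differed between Drd1 and Drd2 nuclei were tested in the same 5 libraries as the pairs, with 1 residual degree of freedom. WT, 5xFAD and Cnp-/- 5xFAD had 1 library each there, so that a genotype and its library cannot be told apart. For Cnp loss 15 of 8853 genes passed edgeR's test (0.169%), 2 higher (0.0226%) and 13 lower (0.147%) in the response of Drd1 nuclei, and for 5xFAD 7 (0.0791%), 6 higher (0.0678%) and 1 lower (0.0113%). DESeq2 called 0 in both, where 282 and 230 genes had an unadjusted p under 0.05 in edgeR. The 4 mitochondrial genes tested of the RNA quality list, with 26 to 47 UMIs each, were positive in both responses (medians 5.59 for Cnp loss and 6.59 for 5xFAD, against -0.04 and 0.00 over all genes) and none passed. They stood at 21.5 to 59.1 CPM in the Drd1 nuclei of Cnp-/- 5xFAD 1 and at 0 to 22 in those of the other 4 libraries, and their part in the calls was not tested. Several of the called genes mark other cells. The 13 lower genes included the astrocyte markers Slc1a2 (-2.13) and Slc1a3 (-2.60), the oligodendrocyte marker St18 (-5.44) and the excitatory neuron marker Rorb (-3.17). Slc1a3, the astrocyte glutamate transporter, was at 152 CPM in Drd1 nuclei of WT 1 and 92.5 in 5xFAD 2, against 18.6, 110.2 and 21.5 in Cnp-/- 1, Cnp-/- 2 and Cnp-/- 5xFAD 1, while Drd2 nuclei ranged from 55.1 to 98.9. Without the nuclei that held 3 or more oligodendrocyte marker UMIs (34 of the Drd1 nuclei), 1 gene passed for Cnp loss and 3 for 5xFAD.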

How the data were processed

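Nuclei from frozen mouse hemispheres (6 months of age, 8 libraries) were isolated on an iodixanol gradient and sequenced as 10x 3′ libraries. The authors deposited raw UMI counts per gene and nucleus with a table of cell types and clusters, both used here as deposited. Per the labels, reads were aligned with Cell Ranger 6.1.2 to mm10, and CellBender and Seurat were used. How introns were counted and doublets treated is not given in the sources used here. The summed counts of all 61949 nuclei equalled the deposited totals.

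Counts of the gated nuclei were summed per library, and each library was 1 replicate. CPM scale a gene's UMIs to the usual fixed total over all 32285 genes of those nuclei. Tests used edgeR 4.0.16 (quasi-likelihood, filterByExpr, TMM, two-sided, Benjamini-Hochberg, threshold 0.05) in R 4.3.3, with 1 mean per genotype or with the library as a block for paired profiles. On simulated data the genotype tests recovered 3.39% (Cnp loss) and 7.14% (5xFAD) of 2-fold changes. For 4-fold changes they recovered 54.4% and 49.4%, so most smaller genotype changes would be missed. The Drd1 to Drd2 test recovered 90.8% of 2-fold changes and the Oprm1 test 53.4%. Paired tests used 5 libraries (4 for Oprm1) in place of 8, since 3 libraries held no Drd2 nuclei. Alternatives were DESeq2 1.42.0, other filters, gates, depths and nuclei, and leaving out each library. Coordinates are from GENCODE M21 (GRCm38). Marker sums add the CPM of a list's genes.

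Named genes were the gate genes and Cnp, members of the lists, and in each comparison up to 12 genes per direction with the largest log2 fold change among those past the threshold whose libraries did not overlap or, in paired tests, moved the same way in every library with both profiles. With fewer than 5 genes past the threshold these and the 5 genes with the smallest p were named. The members and lists were chosen with earlier results of these data known. Library totals, 68905044 to 82399061 UMIs, were similar, but 4 libraries gave under 10 Drd1 nuclei, which limits precision there. Tests of shares were exact permutation tests with scipy 1.17.1. A few results on single genes are not reported here.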

Additional observations from a re-analysis of the deposited data

Results flagged for a closer look

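A value was looked at again where the highest or lowest of 4 or 5 libraries lay far from the others by Dixon's criterion. Of 89 groups of values tested 15 met it. Most groups were of genes named above for their values in these same data, and some share libraries. The usual rate of the criterion does not hold for them. Each of the values below is from a library with 3 Drd1 nuclei or fewer, except those of Cpa6 in WT 1 and of Grm8.

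The lone Drd1 nucleus of 5xFAD 1 stood apart in Trhde (4065 CPM), Kcnc2 (3435 CPM) and Kcnmb2 (973 CPM), both among the libraries without Cnp loss and among those with 5xFAD. The same nucleus had Rarb, Foxp2 and Tac1 at 0. The 3 nuclei of Cnp-/- 2 stood apart among the libraries with Cnp loss in Cpa6 (331 CPM), Luzp2 (859 CPM) and Zfp804b (2182 CPM). Among the libraries without Cnp loss, WT 1 stood apart in Cpa6 (212 CPM), since the other 3 were at 0.

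In the log2 difference between Drd1 and Drd2 nuclei (CPM plus a pseudocount of 1), Cnp-/- 2 stood apart in Ankfn1 (6.48), Oprd1 (-6.16), Crhr1 (-5.53) and Htr2c (-7.80). In each of the 4 genes 1 of the 2 profiles of that library was at 0. Between Oprm1-rich and Oprm1-free nuclei, Cnp-/- 5xFAD 1, with 4 and 11 nuclei, stood apart in Grm8 (5.07).

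By the test of the difference itself, the response to Cnp loss differed between Drd1 and Drd2 nuclei in 15 genes and the response to 5xFAD in 7, in edgeR's fit with 1 residual degree of freedom. DESeq2 called 0 in both.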

How the results depend on the processing

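Depth and the number of nuclei set the limits. The genotype tests rest on 4 libraries with 19 to 61 Drd1 nuclei and 4 with 1 or 3, and most Drd1 nuclei sat at the threshold of 2 Drd1 UMIs. Over all alternatives, 630 values of single genes stayed the same, 249 kept the direction only and 5 reversed. For test results, the same means the same direction and side of the threshold. The 630 also include a few levels of genes under TMM scaling, which have no direction or threshold. Of 32 named Drd1 to Drd2 genes, 15 kept their call in every alternative that gave a value, among them Tac1, Foxp2, Erbb4, Adora2a, Penk, Grik3, Adk and Htr2c. In the other comparisons no named gene did (0 of 14 for Oprm1, 0 of 5 for Cnp loss on the 5xFAD background, 0 of 1 each for Cnp loss and 5xFAD, and 0 of 4 and 0 of 2 for the responses to them). The causes of the changes below were not tested.

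The genes that differ between Drd1 and Drd2 projection neurons (108) numbered 188 with no filter, 68 with DESeq2, 39 with at least 3 UMIs of Drd1 and Rgs9, 11 with the same number of nuclei per library (353 genes tested), 64 without the library as a block and 266 within the main cluster. Leaving out 1 library gave 63 to 98.

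Genes changed by Cnp loss (1) numbered 2 with DESeq2 size factors in edgeR, 0 with DESeq2, 0 at 3 UMIs, 3 with 1 UMI of Drd1, 2 without nuclei with oligodendrocyte UMIs, 4 without the deepest nuclei, 0 with equal numbers of nuclei and 83 in the additive model of 4 libraries, and ranged from 0 to 14 with 1 library left out. Sox6 reversed to 0.78 without WT replicate 1 and ranged from -5.30 to 0.78 with 1 library left out. Genes changed by 5xFAD (1) numbered 8 with no filter, 0 with DESeq2, 0 at 3 UMIs, 9 at 1 UMI, 0 without oligodendrocyte UMIs, 2 after thinning, 0 with equal nuclei, 0 in the main cluster and 19 in the additive model, and from 0 to 10 with 1 library left out. The interaction (0) gave 1 with size factors, 1 in the main cluster and 0 to 14 with 1 library left out. Cnp loss on the 5xFAD background (5) gave 8 with size factors, 1 at 1 UMI, and 0 with no filter, with DESeq2, at 3 UMIs, without oligodendrocyte UMIs, after thinning, with equal nuclei, with the compared libraries only and in the main cluster, where Kcnc2 reversed to 1.88. It ranged from 0 to 38 with 1 library left out.

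Replicate numbers are shared between genotypes, and deviations of same-numbered libraries correlated at -0.11 to 0.093. In each genotype 1 library held 1 or 3 Drd1 nuclei, so these correlations cannot decide whether the numbers pair the libraries. With the replicate number as a block, 0 genes passed for Cnp loss, 1 for 5xFAD, 0 for the interaction and 4 for Cnp loss on the 5xFAD background. The exact permutation p of the 4 shares within replicate numbers was 0.778, 1.0, 0.333 and 0.667.

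The response to Cnp loss that differs between Drd1 and Drd2 nuclei (15) gave 9 with no filter, 0 with DESeq2, 3 at 1 UMI, 1 without oligodendrocyte UMIs, 8 without the deepest nuclei, 1 after thinning, 0 with equal nuclei and 32 without the interaction term. Rorb reversed to 0.11 at 1 UMI. The response to 5xFAD (7) gave 2, 0, 2, 3, 2, 1, 0 and 11 in the same order. Neither could be fitted at 3 UMIs, with 1 library left out or in the main cluster alone. The Oprm1 comparison (22) gave 95 with no filter, 13 with DESeq2, 573 at 1 UMI of Drd1, 4 without oligodendrocyte UMIs, 3 without the deepest nuclei, 6 after thinning, and 0 at 3 UMIs, with equal nuclei, at 4 UMIs of Oprm1 and in the main cluster, and ranged from 0 to 34 with 1 library left out. Hs3st4 reversed to -0.32 at 3 UMIs and -0.42 in the main cluster.

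The share of Drd1 nuclei among neurons reversed for Cnp loss to 0.0355 percentage points when every neuron was thinned (-0.277 to 0.173 with 1 library left out), and for 5xFAD to -0.0111 at 3 UMIs and -0.0244 after thinning (-0.226 to 0.224). The share among Drd1 and Drd2 nuclei reversed for Cnp loss to 6.23 at 1 UMI and 17.0 after thinning (-44.8 to -15.4), and for 5xFAD to -24.7 at 3 UMIs and -0.0748 over all Rgs9 nuclei (5.87 to 35.2). With the genes that chose the nuclei left out of the adjustment, 107, 15, 7 and 18 genes passed for the Drd1 to Drd2, both response and the Oprm1 comparisons. This setting and those with the main cluster, the additive model and no interaction term were chosen after seeing the data.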

Other observations

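Eif2s3y, a Y-linked gene, was low in Cnp-/- 5xFAD 1 in every class of nuclei measured. It was at 5.37 CPM in the Drd1 nuclei of that library, 53.2 in Drd2 nuclei, 38.2 in other inhibitory neurons, 33.6 in excitatory neurons and 72.8 in mature oligodendrocytes. In the other 7 libraries it ranged from 117 to 198 CPM in other inhibitory neurons, from 89.8 to 169 in excitatory neurons and from 175 to 374 in mature oligodendrocytes. Of these 7, WT 2 and Cnp-/- 5xFAD 2, with 1 Drd1 nucleus each, had 0 CPM in Drd1 nuclei, and the rest 88.1 to 229. Another Y-linked gene, Ddx3y, was at 57.3 CPM in other inhibitory neurons of Cnp-/- 5xFAD 1, within the 51.2 to 62.4 of the others, and Uty was at 144 against 163 to 185. Eif2s3y is 1 of the 5 genes called for Cnp loss on the 5xFAD background.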
